A study of Mus musculus with 4 samples.

Results

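Scavenger receptors and receptors for apoptotic cells were followed in mouse dendritic cells (DCs) with and without the liver X receptors (LXRs). The set holds 10 genes, Marco, Msr1, Cd68, Scarb1, Stab1, Trem2, Tyrobp, Mertk, Axl and Gpnmb, out of 18193 genes named on the array. Its members were chosen by symbol, with earlier results of these data known. Every probe set annotated to exactly 1 of these genes was used, which gave 19 of the 34945 probe sets with a single gene symbol. A probe set is the group of short array oligonucleotides that reports on a transcript.

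The cultures formed 4 groups with 1 array each: LXR-DKO DCs with LPS, LXR-DKO DCs without LPS, WT DCs with LPS and WT DCs without LPS. LXR-DKO mice lack both LXRα and LXRβ, nuclear receptors that are switched on by oxysterols, and all groups were of the strain C57/BL6. All cells were grown from bone marrow for 6 to 7 days in GM-CSF, a growth factor for myeloid cells, at 20 ng/mL, enriched with beads for the DC integrin CD11c, and then kept for 24 h in GM-CSF at 10 ng/mL. In the LPS groups, lipopolysaccharide, the bacterial ligand of Toll-like receptor 4 that matures DCs, was added at 100 ng/mL. The deletion is carried by every cell of the culture and not by DCs alone, and such cultures can hold macrophages and other myeloid cells beside DCs. In bulk RNA of this kind, fewer cells of a type and less RNA per cell cannot be told apart.

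Scavenger receptors are surface proteins that bind modified lipoproteins, bacteria and cell debris, and hand them to the lysosome. Apoptotic cells are recognised by several kinds of receptor. Among them are the TAM receptor kinases, which bind phosphatidylserine through bridging proteins, and TREM2, which senses lipids and signals through the adaptor DAP12. In macrophages, LXRs are activated by the sterols of engulfed cells, and Mertk is a known LXR target there. Immature DCs use such receptors to take up antigen, and maturation by LPS is known to turn uptake down.

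Values are MAS5 signals on a linear scale. A floor of 28.9, the median of all signals, was set, and 47.8% to 52.6% of the probe sets on an array were at or above it. Lower signals were raised to the floor before a ratio was taken. With 1 array per group there is no replicate error and no test was possible, so a difference is described by its size. The only error that can be had from these arrays is how far probe sets for a given gene disagree, as the SD of their log2 ratios. This SD was 0.45 for LXR-DKO over WT without LPS, 0.54 for the same with LPS, 0.42 for LPS over control in LXR-DKO and 0.29 in WT. The targeted gene Nr1h3, which encodes LXRα, had signals of 27.0 in LXR-DKO LPS, 40.4 in LXR-DKO control, 54.5 in WT LPS and 108.6 in WT control. Whether its probe set lies in the deleted stretch is not given in the sources used here, so this does not check the labels. The DC integrin gene Itgax was bright on all 4 arrays, with 3848.1, 4404.5, 6093.0 and 5012.2 in the same order, while the DC transcription factor gene Zbtb46 had 393.3 and 305.9 in LXR-DKO and only 29.0 and 39.4 in WT.

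The first question was how the receptor genes differed between the genotypes. Without LPS, 5 of 10 members were at least 2-fold lower in LXR-DKO, where 9.28% of all 11728 measured genes were. These were Trem2, Marco, Msr1, Cd68 and Gpnmb. A further 2 of 10, Axl and Stab1, stood at least 2-fold above WT, against 12.7% of all genes. The median log2 ratio of the members was -0.98, beside 0.05 over all measured genes. With LPS, 3 of 10 were at least 2-fold lower, against 8.76% of 12014 genes, and 2 of 10 higher, against 17.8%, with medians of -0.42 and 0.15. Trem2, Msr1 and Cd68 were lower in both conditions, which held for 6.15% of 11264 genes. Axl and Stab1 were higher in both, which held for 10.3%. Since members and related lists were chosen with earlier results of these data known, counts set beside these shares are descriptions and not tests.

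**Figure D1:**
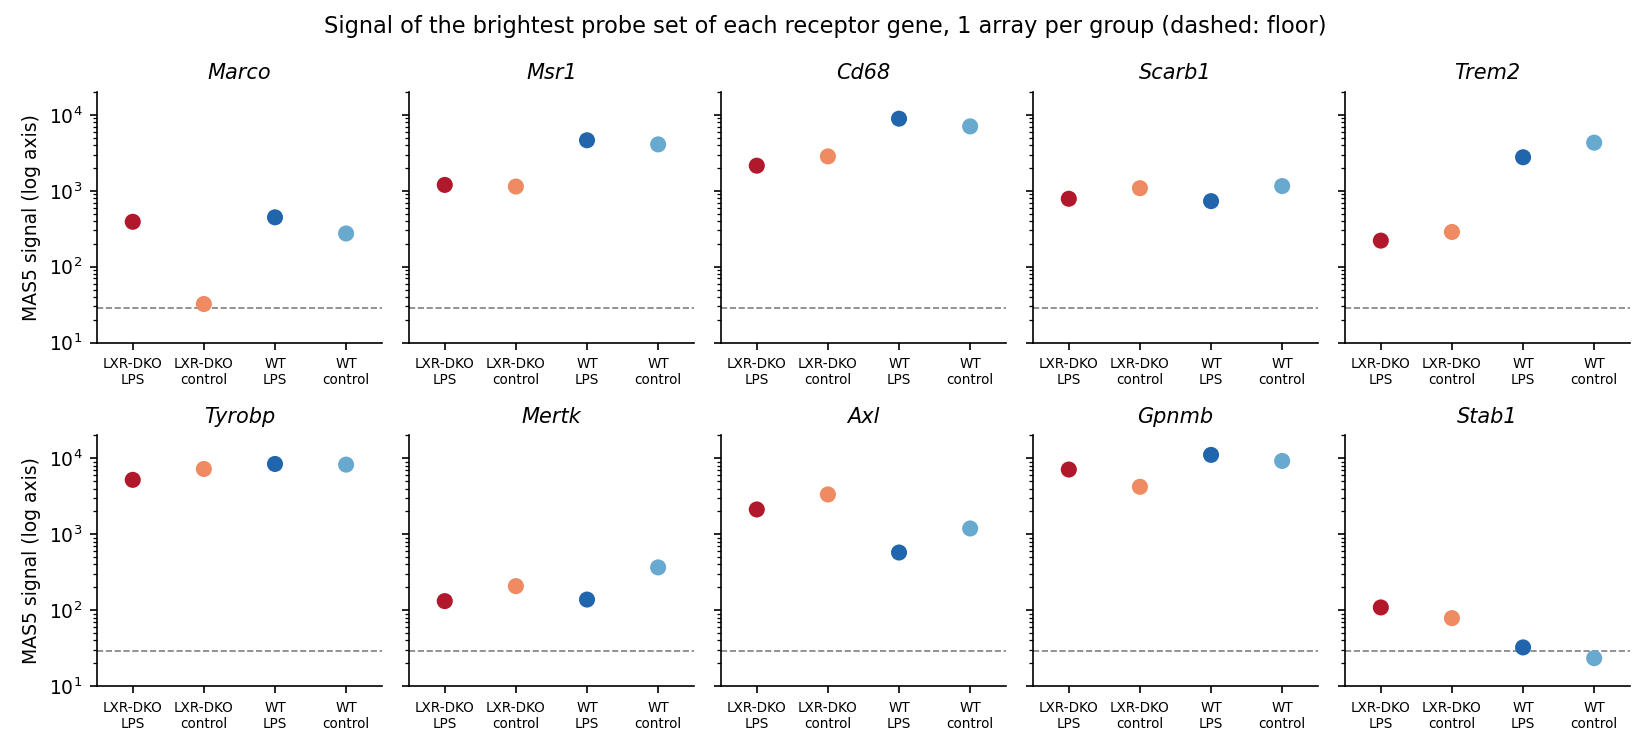
MAS5 signal on a log axis of the brightest probe set of each of the 10 genes, with 1 point for each array and the floor of 28.9 as a dashed line. Trem2, Msr1 and Cd68 are low on both LXR-DKO arrays, Axl and Stab1 are high on both, and Marco is low on the LXR-DKO control array alone.

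Trem2, the lipid-sensing receptor of macrophages and microglia, had the largest genotype difference among the brightest probe sets. Its brightest probe set had signals of 220.3 in LXR-DKO LPS, 286.4 in LXR-DKO control, 2762.6 in WT LPS and 4302.2 in WT control. Both LXR-DKO arrays were far below both WT arrays. LXR-DKO was 15.02-fold lower than WT without LPS and 12.5-fold lower with LPS, log2 ratios of -3.91 and -3.65. Only 33 of 11728 measured genes lay as low or lower without LPS, counting Trem2 itself, and 25 of 12014 with LPS. This probe set carries the suffix of the manufacturer for oligonucleotides shared by several transcripts. The other probe set of Trem2 was dim, with 3.8, 32.5, 26.0 and 46.5 in the same order of groups, and the 2 values above the floor gave a log2 ratio of -0.52 for LXR-DKO over WT without LPS. The size of the Trem2 difference therefore rests on 1 probe set. With LPS, the dim probe set was below the floor on both arrays and gave no ratio.

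Tyrobp encodes DAP12, the adaptor that carries the signal of TREM2 and of several other receptors. In contrast with Trem2, its 4 signals lay close together, at 5209.7 in LXR-DKO LPS, 7245.4 in LXR-DKO control, 8436.1 in WT LPS and 8262.0 in WT control. Set over WT, LXR-DKO stood at a log2 ratio of -0.19 in control culture, inside the SD between probe sets, and of -0.70 with LPS, outside it. From highest to lowest array, Tyrobp spanned 1.62-fold and Trem2 19.5-fold.

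A list of 19 other genes held TREM family members, receptors linked to DAP12 or a like adaptor, adaptors, signalling enzymes and proteases. Of these, 18 were measured without LPS. The median log2 ratio was -0.07. In LXR-DKO, 4 stood at least 2-fold above WT and 1 below, against 12.7% and 9.28% of all measured genes. Trem1, which amplifies inflammation in neutrophils and monocytes, had 681.5 and 985.3 in LXR-DKO with and without LPS, against 141.4 and 129.1 in WT. Treml2 had 800.6 and 1155.8 in LXR-DKO, against 170.2 and 63.2 in WT. Trem1 and Treml2 were thus high on the arrays where Trem2 was low. The other TREM genes of the list, Trem3, Treml1 and Treml4, stood at 0.43, -0.07 and -0.06 without LPS. With LPS they stood at 1.11, 0.26 and 1.22. The receptor gene Klrk1, known from NK cells, stood at 1.66 without LPS. The adaptor genes Hcst and Fcer1g stood at -0.52 and -0.71, and Syk, the kinase downstream of these adaptors, at -0.33. With LPS, 6 of 19 stood at least 2-fold above WT and 1 below, against 17.8% and 8.76% of all measured genes.

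The macrophage scavenger receptors of class A were both lower in LXR-DKO without LPS, but with LPS only Msr1 was at least 2-fold lower. Msr1, which binds acetylated lipoproteins, had 4 probe sets, and all reached the floor on all arrays. The brightest had 1194.0 in LXR-DKO LPS, 1137.3 in LXR-DKO control, 4626.0 in WT LPS and 4080.8 in WT control. LXR-DKO was 3.59-fold lower without LPS and 3.87-fold lower with LPS. Across the 4 probe sets the log2 ratios lay between -1.84 and -1.22 without LPS and between -2.15 and -1.61 with LPS. Every Msr1 probe set was thus more than 2-fold lower in both conditions.

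Marco, which binds bacteria and particles, had signals of 390.1 in LXR-DKO LPS, 32.2 in LXR-DKO control, 446.6 in WT LPS and 273.6 in WT control. The LXR-DKO control array stood alone, close to the floor, and the other 3 arrays differed by less than the SD between probe sets from one neighbour in order to the next. Taken directly, WT LPS over WT control was 0.71 on the log2 scale, outside the SD of 0.29. LXR-DKO was 8.50-fold lower than WT without LPS and 1.14-fold lower with LPS, log2 ratios of -3.09 and -0.20. The second Marco probe set had 115.8, 2.2, 224.5 and 117.9 in the same order. It was at least 4.08-fold lower without LPS and 1.94-fold lower with LPS. Only 91 of 11728 measured genes were as low as Marco without LPS. With the floor at the 75th percentile of 177.4, which lies above the LXR-DKO control signal, Marco without LPS stood at -0.63.

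Cd68, a lysosomal glycoprotein of phagocytes that binds oxidised lipoproteins, had 1 probe set. Its signals were 2139.2 in LXR-DKO LPS, 2836.3 in LXR-DKO control, 8902.7 in WT LPS and 7043.9 in WT control. Both LXR-DKO arrays were below both WT arrays. The ratio was 2.48-fold lower without LPS and 4.16-fold lower with LPS, log2 ratios of -1.31 and -2.06.

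Scarb1, the class B receptor that takes up cholesterol from high-density lipoprotein, gave no single answer. Its brightest probe set had 784.3 in LXR-DKO LPS, 1081.0 in LXR-DKO control, 729.7 in WT LPS and 1152.2 in WT control, with log2 genotype ratios of -0.09 without LPS and 0.10 with LPS. The value with LPS was -0.19 after scaling to the same 75th percentile and -0.03 after centring. The other probe sets, both with a suffix for oligonucleotides that may bind other transcripts, gave -1.38 and -0.95 without LPS and -0.76 and -0.41 with LPS. By its brightest probe set, the order of the arrays followed LPS and not genotype, and both genotype steps were within the SD between probe sets.

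Stab1, a multifunctional receptor of macrophages and sinusoidal endothelium, was dim throughout. Its signals were 108.6 in LXR-DKO LPS, 78.5 in LXR-DKO control, 32.3 in WT LPS and 23.3 in WT control. Its LXR-DKO signal without LPS was at least 2.72-fold higher than that of WT, since the WT control value lay below the floor, and 3.36-fold higher with LPS. It had 1 probe set, and it was the only member whose brightest probe set fell below the floor on any array.

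Of 16 other scavenger receptor genes, 12 were measured without LPS. In LXR-DKO, 4 stood at least 2-fold below WT and 1 above, against 9.28% and 12.7% of all measured genes. Their median log2 ratio was -0.72. Lrp1, which takes up lipoproteins and apoptotic cells, had signals of 467.3 and 198.5 in LXR-DKO with and without LPS, against 1573.0 and 1504.4 in WT. The mannose receptor gene Mrc1 had 149.3 and 378.9 in LXR-DKO, against 285.0 and 1939.9 in WT. For Cd36, a receptor for oxidised lipoproteins and long-chain fatty acids, the signals were 1469.2 and 1964.0 in LXR-DKO, against 10947.9 and 9374.7 in WT. These 3 were named because their genotype ratios without LPS were the largest of the list, at log2 values of -2.92, -2.36 and -2.25. The gene at least 2-fold higher was Cxcl16, at 1.95. With LPS, 4 of 11 were at least 2-fold lower and 0 higher, against 8.76% and 17.8% of all measured genes.

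**Figure D2:**
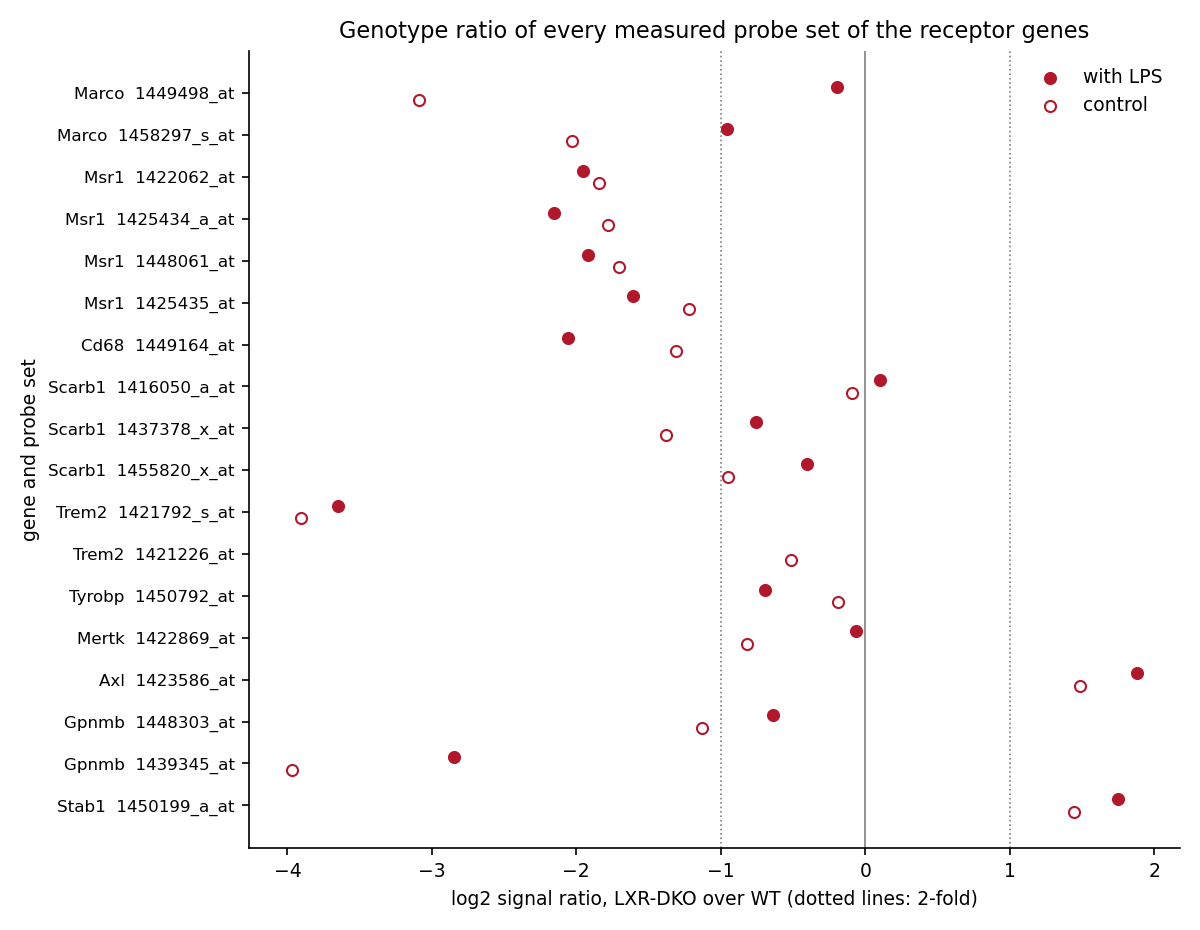
log2 signal ratio of LXR-DKO over WT with LPS (filled) and without LPS (open) for each of the 18 probe sets of the 10 genes with a ratio, with dotted lines at 2-fold and ratios against a value below the floor drawn at their bound. All Msr1 probe sets lie left of the 2-fold line, the Scarb1 and Gpnmb probe sets differ among themselves, and the Axl and Stab1 probe sets lie to the right.

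The TAM kinases went different ways. Axl, which binds the bridging protein GAS6 and is known from DCs and inflamed macrophages, had signals of 2121.4 in LXR-DKO LPS, 3345.0 in LXR-DKO control, 574.7 in WT LPS and 1191.7 in WT control. Both LXR-DKO arrays were above both WT arrays. The gene was 2.81-fold higher in LXR-DKO without LPS and 3.69-fold higher with LPS, log2 ratios of 1.49 and 1.88. Another probe set annotated to Axl stayed below the floor on all 4 arrays and gave no ratio.

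Mertk, the TAM kinase used by resting macrophages to engulf apoptotic cells, had signals of 131.6 in LXR-DKO LPS, 207.3 in LXR-DKO control, 137.9 in WT LPS and 365.8 in WT control. The WT control array was the highest and the LPS arrays of both genotypes were about equal. LXR-DKO was 1.76-fold lower without LPS, a log2 ratio of -0.82 that was outside the SD between probe sets but under 2-fold. With LPS the log2 ratio was -0.07. Mertk and Axl thus stood on opposite sides of WT without LPS.

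The third TAM kinase gene, Tyro3, did not rise above 48.8 on any array and had signals of 16.3, 46.6, 48.8 and 7.4 in the order LXR-DKO LPS, LXR-DKO control, WT LPS and WT control. The bridging ligand gene Gas6 stood at -0.98 for LXR-DKO over WT without LPS, with signals of 31.8 in LXR-DKO and 62.6 in WT. Pros1, which encodes protein S, the other TAM ligand, stood at -1.29, with 106.8 in LXR-DKO and 260.8 in WT. Mfge8, which bridges phosphatidylserine to integrins, had 2948.4 in LXR-DKO control and 7333.2 in WT control, a log2 ratio of -1.31. Gas6, Pros1 and Mfge8 were thus lower in LXR-DKO without LPS, Gas6 by less than 2-fold, while Thbs1, which encodes the bridging protein thrombospondin, was higher, with 1297.1 in LXR-DKO and 578.5 in WT.

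In the list of 22 other apoptotic cell recognition genes, 18 were measured without LPS. The median log2 ratio was -0.19. In LXR-DKO, 4 stood at least 2-fold above WT and 5 below, against 12.7% and 9.28% of all measured genes. The complement genes C1qa, C1qb and C1qc, whose products coat apoptotic cells, stood farthest apart. They are also markers of macrophages. For C1qc, the LXR-DKO signals were 2566.9 with LPS and 5386.1 without, against 0.8 and 41.4 in WT, a log2 ratio of 7.02 without LPS. C1qb stood at 5.86 and C1qa at 7.53 or more. Of the engulfment machinery inside the cell, 4 of 13 measured genes stood at least 2-fold above WT in LXR-DKO control cells and 0 below. The shares of all measured genes were again 12.7% and 9.28%, and the median of the list was 0.42. Vav3, an activator of Rac GTPases, stood at 1.78, and the lipid transporter genes Abca1 and Abca7 at 3.20 and 1.68.

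Gpnmb, a transmembrane glycoprotein of lipid-laden macrophages, was lower in LXR-DKO by both of its probe sets, but by unequal amounts. The brighter probe set had 7121.4 in LXR-DKO LPS, 4219.2 in LXR-DKO control, 11109.4 in WT LPS and 9242.6 in WT control. The ratios were 2.19-fold lower without LPS and 1.56-fold lower with LPS. The dimmer had 122.4, 70.2, 880.2 and 1100.0 in the same order, 15.7-fold and 7.19-fold lower. On both probe sets the 2 LXR-DKO arrays lay below the 2 WT arrays.

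Gpnmb is a known target of the transcription factor MITF and its relatives, which control lysosomal genes. All 14 genes of a list of this axis were measured without LPS. Their median log2 ratio was -1.39. In LXR-DKO, 9 stood at least 2-fold below WT and 0 above, against 9.28% and 12.7% of all measured genes. With LPS 9 were again below and 0 above, against 8.76% and 17.8% of all measured genes, with a median of -1.57. Tfec, a relative of MITF found in macrophages, had 378.3 and 435.7 in LXR-DKO with and without LPS, against 2906.3 and 3341.1 in WT. Atp6v0d2, a subunit of the lysosomal proton pump, had 776.9 and 818.7 in LXR-DKO, against 7283.1 and 6621.3 in WT. Ocstamp, a cell fusion gene, stood at -3.12 without LPS. Mitf itself stood at -2.17 without LPS and -1.94 with LPS.

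Genes that mark lipid-associated macrophages together with Trem2 and Gpnmb had a median of -0.81 without LPS. In LXR-DKO, 5 of 16 stood at least 2-fold below WT and 1 above, against 9.28% and 12.7% of all genes. With LPS 7 were below and 1 above, against 8.76% and 17.8%. The protease gene Ctsk was the lowest at -4.56 and the lipid droplet gene Plin2 stood at -1.86, while Apoe stood at 3.03 or more. LXR target genes, some of which are shared with that list, stood at a median of 0.24. Of 15, 6 lay at least 2-fold above WT in LXR-DKO, against 12.7% of all genes, led by the phospholipid transfer gene Pltp at 4.18. At least 2-fold below WT were 2, against 9.28% of all genes, and 1 of them was the targeted gene Nr1h3 at -1.43. NRF2 target genes, which protect against oxidative stress and which include Marco in macrophages, had a median of -1.61. In LXR-DKO, 7 of 11 stood at least 2-fold below WT and 0 above, among them the cystine transporter gene Slc7a11 at -3.99, Nqo1 at -3.71 and the haem oxygenase gene Hmox1 at -3.21.

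**Figure D3:**
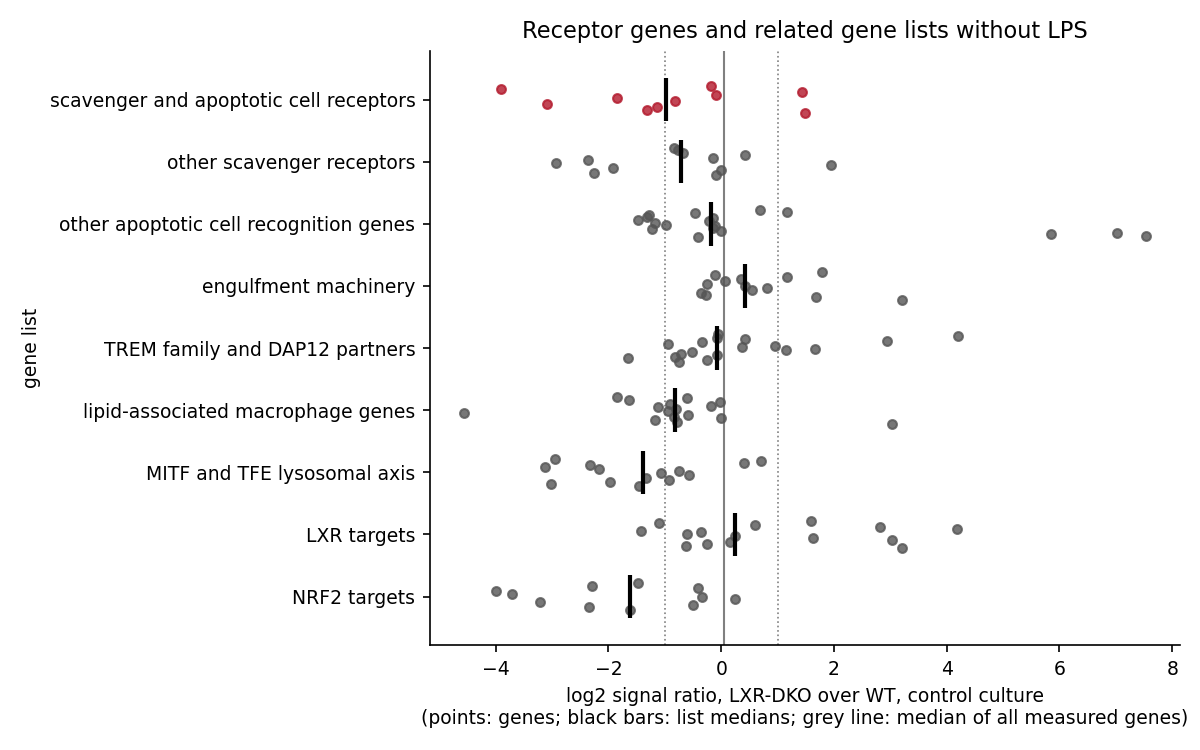
log2 signal ratio of LXR-DKO over WT without LPS for the measured genes of the receptor set (red, top) and of 8 related lists, with list medians as black bars and the median of all measured genes as a grey line, and ratios against a value below the floor at their bound. The NRF2 and MITF lists have medians of -1.61 and -1.39, lower than the receptor set at -0.98, and the 3 C1q genes stand to the far right.

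Markers of several cell types differed between the genotypes as well. For the counts that follow, 12.7% of all measured genes stood at least 2-fold above WT in LXR-DKO without LPS and 9.28% below. Of 10 macrophage and monocyte markers reaching the floor on any array, 9 were measured without LPS, of which 5 stood at least 2-fold above WT in LXR-DKO and 1 below. The summed signals of the 10 were 33728.7 in LXR-DKO LPS, 39207.6 in LXR-DKO control, 28131.9 in WT LPS and 18314.9 in WT control. C1qa, C1qb and C1qc gave 5335.4, 6280.6 and 5386.1 of the LXR-DKO control sum, and at most 108.4 each in WT. With LPS they gave at least 2566.9 each in LXR-DKO. The higher sums in LXR-DKO thus rest in large part on these genes. With LPS, Adgre1, Csf1r, Cd14 and Mrc1 were lower in LXR-DKO than in WT, while Fcgr1, Ccr2 and Cx3cr1 were higher. The log2 ratios of the 9 markers measured without LPS lay between -2.36 for Mrc1 and 7.53 or more for C1qa, with a median of 1.52. Csf1r stood at -0.07, Adgre1 at 0.36, Cd14 at 0.58, Ccr2 at 1.52 and Fcgr1 at 2.06, so the markers did not move by a common amount. Vsig4 and Lyve1 were below the floor on all arrays. Conventional DC markers summed to 58003.5, 52513.0, 23488.7 and 26751.7 in the same order, and in LXR-DKO control cells 9 of 13 stood at least 2-fold above WT and 0 below. Neutrophil markers summed to 20735.7, 21687.9, 11793.7 and 9986.8, and 6 of 11 stood at least 2-fold above WT and 1 below. Their median log2 ratio without LPS was 1.99. The marker below was Mmp8, with signals of 3769.1, 3829.7, 9716.4 and 7882.0, which made up most of the WT sums. For mast cells, basophils and eosinophils the sums were 2824.9, 2015.6, 542.2 and 709.9, with 5 of 10 at least 2-fold higher. For B cells they were 2317.9, 781.5, 431.1 and 401.1, with 3 of 8 at least 2-fold higher. T and NK cell markers, with 3 genes at the floor on any array, summed to 154.1, 132.0, 122.4 and 108.4, and no marker was at exactly 0. The part of these cell types in the receptor differences was not tested.

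The second question was how the receptor genes responded to LPS in each genotype. With LPS, 1 of 10 members in LXR-DKO stood at least 2-fold above its control level, against 6.23% of 11793 measured genes, and 0 were lower, against 1.82%. In WT, 0 of 10 stood at least 2-fold above it, against 2.93% of 11449 genes, and 2 were lower, against 4.79%. The median log2 ratios of the members were -0.39 in LXR-DKO and 0.10 in WT, beside 0.02 and -0.05 over all genes. In LXR-DKO 9 of 10 receptor genes, and in WT 8 of 10, stood within 2-fold of their level without LPS. By the shares above, most measured genes did so too.

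Marco was the member higher with LPS in LXR-DKO, by 12.1-fold, from a control signal close to the floor, and in WT it was 1.63-fold higher. The log2 ratio in LXR-DKO was 3.60, against 1.14 when the 75th percentile served as the floor and 2.80 by the median over both probe sets. Only 36 of 11793 measured genes were as high in LXR-DKO. On the second probe set the LPS signal was at least 4.01-fold higher than control in LXR-DKO and 1.90-fold higher in WT.

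Mertk and Axl were lower with LPS in both genotypes. Mertk was 1.58-fold lower in LXR-DKO and 2.65-fold lower in WT, log2 ratios of -0.66 and -1.41. Axl was also 1.58-fold lower in LXR-DKO and was 2.07-fold lower in WT, log2 ratios of -0.66 and -1.05. These 4 differences were outside the SD between probe sets. For Axl in WT the size was close to the 2-fold limit and did not reach it after 75th percentile scaling, after quantile normalization and after centring, at -0.92 at the least.

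By their brightest probe sets, Trem2 and Scarb1 were also lower with LPS, by less than 2-fold. The log2 ratios of Trem2 were -0.38 in LXR-DKO and -0.64 in WT, and those of Scarb1 -0.46 and -0.66. The Trem2 value in LXR-DKO was inside the SD between probe sets. The other Scarb1 probe sets gave -0.11 and -0.10 in LXR-DKO, also inside it, and -0.73 and -0.65 in WT, outside it. Gpnmb was higher by its brighter probe set at 0.76 in LXR-DKO and 0.27 in WT, but its dimmer probe set gave 0.80 and -0.32. Stab1 stood at 0.47 in LXR-DKO and at 0.16 or more in WT. Msr1 gave 0.07 in LXR-DKO and 0.18 in WT, both inside the SD between probe sets.

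**Figure D4:**
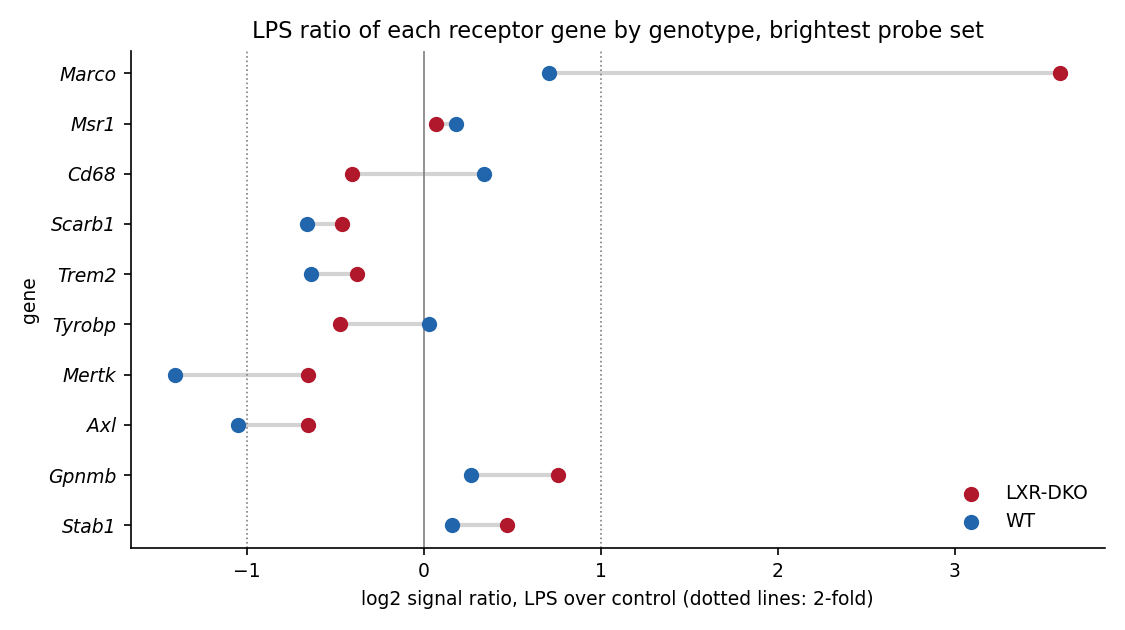
log2 signal ratio of LPS over control for the brightest probe set of each of the 10 genes in LXR-DKO (red) and WT (blue), with dotted lines at 2-fold. Marco lies far apart from the other genes in LXR-DKO at 3.60, and Mertk and Axl lie left of the 2-fold line in WT.

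Responses in the genotypes were then subtracted, LXR-DKO minus WT, on the log2 scale. A difference of at least 1 was found for 1 of 10 members upward, against 7.69% of 10764 genes, and for 0 downward, against 1.99%. It was Marco, at 2.89, and 28 genes lay as high. By their brightest probe sets, the other members lay between -0.74 for Cd68 and 0.75 for Mertk, while probe sets of a gene had an SD of 0.43. Cd68, Mertk, Tyrobp at -0.51 and Gpnmb at 0.49 were outside this SD. The dimmer Gpnmb probe set stood at 1.12, and the other Scarb1 probe sets at 0.62 and 0.54. When the 75th percentile served as the floor, Marco stood at 0.43 and 0 members passed.

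Scavenger receptor genes outside the set were counted in the same way. With LPS, 3 of 11 measured genes in LXR-DKO stood at least 2-fold above control and 1 below, against 6.23% and 1.82% of all genes. In WT 2 stood above and 1 below, against 2.93% and 4.79%. Among those with a large genotype difference, Mrc1 was lower with LPS at -1.34 in LXR-DKO and -2.77 in WT, while Lrp1 stood at 1.24 and 0.06. The TAM ligand gene Pros1 stood at -0.18 in LXR-DKO and -1.11 in WT. Syk was higher at 0.85 and 0.79.

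Genes with a like pattern over the 4 arrays were sought for the 9 members that no array put below the floor, by the root mean square difference of log2 signals centred on each gene's mean, among 9623 genes. Nearest to Trem2 were Tspan4 at 0.19, Rab7b at 0.25 and Mmp19 at 0.32, and only 1 gene lay within 0.25. For Marco the nearest were Ccl3 at 0.28, Procr at 0.35 and Rab20 at 0.38, and 0 genes lay within 0.25. Signals were not scaled by their range, so these counts fall as the range of a gene grows. They do not show how rare the shape of a pattern is. From highest to lowest array, Trem2 spanned 19.5-fold and Marco 13.9-fold, against 1.62-fold for Tyrobp and 1.58-fold for Scarb1. Tgfbi, Plaur and Lmbrd1 were nearest to Msr1, Tor2a, H2bc22 and Ppargc1b to Cd68, and Tspan14, Rbmx and Klf4 to Mertk. Pkmyt1, AI504432 and Fam234b were nearest to Axl and Mdfic, Aldh6a1 and Rnf11 to Gpnmb. Within 0.25 there were 119 genes for Msr1, 105 for Cd68, 32 for Mertk, 126 for Axl and 443 for Gpnmb. The flat patterns of Scarb1 and Tyrobp had 1248 and 1726 such genes, the nearest being Abhd12, Araf and Appbp2os for Scarb1 and Rpe, Zfp213 and Ubash3b for Tyrobp.

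Promoters were looked at for members that were low in LXR-DKO control cells. RefSeq windows of the mouse build GRCm38.p6, from 250 bases before to 50 after the transcript start, were held for 7 of the 10 genes. Both strands of each were searched for the LXR hexamer AGGTCA and its direct repeat with a spacer of 4 bases, for the AP-1 motif TGAGTCA, for the core TGACNNNGC of the antioxidant response element bound by NRF2, for the E-box CACGTG, for the M-box core CATGTG bound by MITF and for the PU.1 core GAGGAAGT. The hexamer AGGTCA is contained in its direct repeat, and the other motifs were counted apart from each other.

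The windows of Trem2, Marco, Cd68 and Gpnmb are shown because these genes were at least 2-fold lower in LXR-DKO without LPS, with matched motifs in capitals. They lie at chr17:48346151-48346450, plus strand, for Trem2, chr1:120504975-120505274, minus strand, for Marco, chr11:69666121-69666420, minus strand, for Cd68, and chr6:49036268-49036567, plus strand, for Gpnmb.
Trem2: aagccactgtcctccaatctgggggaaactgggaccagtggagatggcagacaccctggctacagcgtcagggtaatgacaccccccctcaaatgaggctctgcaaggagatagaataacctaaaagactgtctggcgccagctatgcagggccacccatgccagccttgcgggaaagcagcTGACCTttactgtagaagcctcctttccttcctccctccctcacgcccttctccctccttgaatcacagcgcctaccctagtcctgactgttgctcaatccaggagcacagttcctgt
Marco: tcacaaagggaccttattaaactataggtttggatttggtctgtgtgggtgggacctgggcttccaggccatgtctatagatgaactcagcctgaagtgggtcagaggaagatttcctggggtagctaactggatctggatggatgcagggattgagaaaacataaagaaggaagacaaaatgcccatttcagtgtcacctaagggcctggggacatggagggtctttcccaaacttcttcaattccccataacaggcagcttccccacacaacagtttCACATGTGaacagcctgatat
Cd68: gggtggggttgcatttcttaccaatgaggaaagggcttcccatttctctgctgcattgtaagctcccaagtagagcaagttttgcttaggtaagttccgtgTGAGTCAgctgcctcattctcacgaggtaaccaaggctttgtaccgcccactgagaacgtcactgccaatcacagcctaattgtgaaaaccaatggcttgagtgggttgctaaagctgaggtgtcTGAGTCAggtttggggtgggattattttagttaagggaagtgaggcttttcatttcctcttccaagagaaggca
Gpnmb: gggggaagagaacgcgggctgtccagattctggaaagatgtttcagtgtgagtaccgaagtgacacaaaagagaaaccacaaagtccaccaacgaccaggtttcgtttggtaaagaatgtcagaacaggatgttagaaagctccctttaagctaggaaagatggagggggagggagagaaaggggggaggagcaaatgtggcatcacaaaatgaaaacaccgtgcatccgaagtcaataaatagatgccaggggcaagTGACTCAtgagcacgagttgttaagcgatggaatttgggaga

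Trem2 held the hexamer AGGTCA on the opposite strand at base -68 from the start, which 16.3% of all 32851 windows hold. It was the only member window with this hexamer, and 0 of 7 held the direct repeat, which was in 5 of all windows. Cd68 held the AP-1 motif at bases -149 and -24 and Gpnmb at base 9, and 5.20% of all windows held it. Marco held overlapping M-box cores at bases 30 and 32, one on each strand, and the window of Stab1, a gene higher in LXR-DKO, held the same core at base -87, as did 14.2% of all windows. The antioxidant response core, the E-box and the PU.1 core, held by 12.4%, 7.15% and 3.20% of all windows, were in 0 of 7. A match describes letters in the window and not a bound site, and the genes shown shared no motif of those searched beyond the AP-1 motif in Cd68 and Gpnmb.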

How the data were processed

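RNA of 4 cultures, 1 per group, was labelled as biotinylated cRNA and hybridised to 1 array each, per the labels. MAS5 made the signals, per the submitters' processing notes. Its version and its settings are not given in the sources used here. Each deposited value is a linear intensity, and the mean over probe sets after leaving out 2% at each end was equal on the 4 arrays. Detection calls were not used here.

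The table held 45101 probe sets, of which 64 controls were left out. Names came from the platform annotation, where 34945 probe sets had 1 symbol, 932 had several and 9160 were not listed, and 34741 matched a gene number in the RefSeq gene table, which changed 0 symbols. Signals were raised to a floor of 28.9, the median over all arrays. A gene was represented by its probe set of highest mean signal and counted as measured where at least 1 array of a comparison reached the floor. A ratio with 1 value below the floor is given as "at least" or "or more". A ratio of at least 2-fold, 1 on the log2 scale, was counted. No p-value was computed, and the small number of arrays limits the precision. Calls were tested on simulated data. Python 3.11.15, pandas 2.3.3 and numpy 2.4.6 were used.

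Genes named are the 10 members and, of each related list, the 3 genes with the largest genotype ratio without LPS, with Gas6, Pros1, Tyro3, Cd36, Mfge8, Hcst, Fcer1g, Syk, Nr1h3 and Abca1, and the 3 genes of most like pattern for each member. Mitf, Itgax, Zbtb46, Thbs1, Cxcl16, Mmp8, Trem3, Treml1, Treml4 and the macrophage markers were named after their values were seen. Members and lists were chosen with earlier results of these data known. Alternatives were other scalings, other floors, a log2 of the signal plus 16 with no floor, the median over probe sets, and probe sets without a suffix.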

Additional observations from a re-analysis of the deposited data

Results flagged for a closer look

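For 2 of the 10 genes the LPS response had opposite signs in the genotypes on the brightest probe set, with 1 array in each group, and this difference was not tested. Cd68 stood at a log2 ratio of -0.41 for LPS over control in LXR-DKO and at 0.34 in WT. The value in LXR-DKO was inside the SD between probe sets of 0.42 and that in WT outside the SD of 0.29. Tyrobp stood at -0.48 in LXR-DKO and at 0.03 in WT, and the WT value was inside the SD between probe sets. Under the alternatives the WT value of Tyrobp lay between -0.15 and 0.16.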

How the results depend on the processing

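Each result was recomputed under 8 alternatives. Scaling to the same 75th percentile moved the median log2 ratio of all genes by -0.16 for LXR-DKO over WT without LPS, by -0.26 with LPS, by 0.12 for LPS in WT and by -0.11 for the difference of responses, and quantile normalization and centring moved it by -0.16 and -0.13 for LXR-DKO over WT with LPS. Of 383 values of single members under the alternatives, 365 moved by less than the SD between probe sets, 18 by more, and 0 that were past 2-fold changed sign. The count of members at least 2-fold lower with LPS in WT was 1 under the 75th percentile scaling, quantile normalization and centring, which leave Mertk. Members at least 2-fold higher in LXR-DKO were 1 without LPS and 1 with LPS, whether the floor was the 75th percentile or probe sets with a suffix were left out, since Stab1 then has no ratio. For the difference of responses, 0 members passed with the floor at the 75th percentile. Trem2 stood at -0.52 without LPS by its probe set without a suffix, and at -2.21 by the median of both. Mertk reached -1.01 for LXR-DKO over WT without LPS at its lowest, after 75th percentile scaling. Gpnmb stood at -1.74 with LPS by the median of its probe sets. No paired analysis was possible because each group has 1 array. No alternative could test variation between cultures, mice or hybridisations.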
